A study of Mus musculus with 6 samples.

Results

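Collagen leaves a cell only after a long series of modifications, and the genes for those steps are described here in RNA-seq libraries of mouse bone and of osteoblasts. The set holds 34 genes for collagen modification, processing and crosslinking, chosen by name: the prolyl and lysyl hydroxylases and their partner proteins, the collagen chaperones, the procollagen proteinases and their enhancers, the lysyl oxidases, and 4 genes of the secretory route. Of the 34 genes, 31 have a feature of that name in the deposited tables, out of 48733 named genes, and *Plod3*, *Bmp1* and *Colgalt1* have none. Where a name had more than 1 feature, as *Mia3* did with 2, the FPKM were summed. FPKM are read pairs scaled to the length of the transcript and to the aligned reads of the library, so the levels of different genes in a library can be set side by side.

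All libraries came from mice of the Collaborative Cross strain CC016/GeniUnc, which is inbred, and the labels name no further allele or deletion. Of the 6 libraries, 3 were labelled bone, the cortical bone of the femur after the marrow was spun out, and 3 were labelled osteoblasts, cells grown from bone marrow stromal cells (BMSCs). The osteoblasts were kept for 8 days in medium to which dexamethasone (10 nM), beta-glycerophosphate (10 mM) and ascorbic acid (50 µg/ml) had been added, and the bone received none of these agents by the labels. The stromal cells were obtained by adherence and not by sorting, so the culture can hold other adherent marrow cells. Libraries are named by label and replicate number, as bone 1 to 3 and osteoblasts 1 to 3. The age and sex of the mice are not given in the labels.

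Fibrillar collagen is built as procollagen in the endoplasmic reticulum. There prolyl 4-hydroxylases make the hydroxyprolines that keep the triple helix stable at body temperature, a complex of prolyl 3-hydroxylase 1, CRTAP and cyclophilin B modifies single prolines and speeds folding, and lysyl hydroxylases and glycosyltransferases prepare lysines for crosslinks. HSP47 and FKBP65 hold the folded helix, and large coat vesicles carry it out. Proteinases then cut off the propeptides, and lysyl oxidases start the crosslinks that give bone its tensile strength. Hydroxylases of both kinds need ascorbate, and loss of many of these genes causes brittle bone or fragile connective tissue.

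Depth and the character of the libraries bear on every value. The ratio of coverage to FPKM implied about 13600000 to 22600000 aligned read pairs per library, and 3 pairs on a transcript of 1 kb would give 0.133 to 0.221 FPKM. Features without a name held 71.5% of the FPKM of bone 2 and 65.0% of osteoblasts 1, against 27.4 to 30.7% in the other 4 libraries. *Hbb-bt*, a beta globin of red cells, was at 7.05, 3.58 and 34838 FPKM in bone 1, 2 and 3 and 3.43, 34268 and 48649.6 FPKM in osteoblasts 1, 2 and 3. Its feature also covers *Hbb-bs*. Thus bone 1, bone 2 and osteoblasts 1 were not above 1000 FPKM, and bone 3, osteoblasts 2 and osteoblasts 3 were above it. These are called the libraries low and high in *Hbb-bt*. That division was read from the values, cuts across the labels and is not a group of the study, so it is described by values and counts and no test was made of it.

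By summed FPKM, most lists of marker genes parted in the same way as *Hbb-bt*. In the 3 libraries low in *Hbb-bt*, the summed FPKM of the 4 erythroid markers with a named feature (of 8 listed) was 3.48 to 7.29 FPKM, and in the 3 high ones it was 35727 to 50254 FPKM. The 7 neutrophil markers (of 8) summed to 0.430 to 5.51 FPKM against 14246 to 17226 FPKM, the 4 skeletal muscle markers (of 7) to 1.60 to 3.82 FPKM against 235 to 983 FPKM, the 4 cartilage markers (of 5) to 8.80 to 27.7 FPKM against 182 to 319 FPKM, and the 4 endothelial markers (of 4) to 0.273 to 4.93 FPKM against 31.8 to 43.9 FPKM. *Col9a1*, *Elane* and *Tnnt3*, defining genes of cartilage, immature neutrophils and muscle, were listed at 0 in the libraries low in *Hbb-bt*. The 6 macrophage markers (of 6) and the 3 smooth muscle markers (of 4) ran the other way, at 5453 to 9968 FPKM against 1673 to 2064 FPKM and at 193 to 497 FPKM against 11.0 to 17.5 FPKM. The 5 osteoclast (of 5), 5 tendon and fibroblast (of 6) and 4 adipocyte markers (of 4), of which the last overlapped, were at 47.5 to 315 FPKM against 705 to 800.0 FPKM, 41.8 to 73.7 FPKM against 116 to 137 FPKM, and 27.4 to 161 FPKM against 114 to 152 FPKM. Within the osteoclast list, *Acp5*, *Mmp9* and *Ocstamp* were higher in each high library, while *Ctsk* and *Calcr* overlapped. Within the tendon and fibroblast list, *Dcn* was at 7.81 to 15.9 FPKM against 81.1 to 88.6 FPKM. *Scx* ran the other way, at 3.71 to 6.70 FPKM against 1.17 to 1.96 FPKM, and *Fmod*, *Thbs4* and *Tnmd* overlapped. *Sost*, which encodes the osteocyte protein sclerostin, was at 0.176, 0.0661 and 18.8 FPKM in bone 1, 2 and 3 and 0.198, 22.7 and 15.8 FPKM in osteoblasts 1, 2 and 3. *Dmp1*, another gene of osteocytes, was at 104, 50.0 and 24.2 FPKM in bone 1, 2 and 3 and 127, 22.5 and 22.9 FPKM in osteoblasts 1, 2 and 3. *Sost* was thus near 0 in the 3 libraries low in *Hbb-bt*, 2 of them labelled bone, while *Dmp1* was higher in those 3, and the labels overlapped in both genes. The whole list of 5 osteocyte markers (of 6) summed to 57.1 to 135 FPKM in the low libraries and 48.2 to 53.5 FPKM in the high ones, and the 6 osteoblast markers (of 8) to 3151 to 5043 FPKM and 3564 to 4363 FPKM. Within the osteoblast list, *Ibsp* was at 986 to 1278 FPKM in the low libraries and 43.1 to 91.3 FPKM in the high ones. *Bglap2* ran the other way, at 264 to 513 FPKM against 1641 to 1959 FPKM. *Alpl*, like *Ibsp*, was higher in each low library, and *Col1a1*, *Sp7* and *Runx2* overlapped. The part of these cell types in the values below was not tested, and whether libraries were exchanged was not tested either. In bulk RNA, fewer cells of a type and less RNA per cell cannot be told apart.

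The substrate of these enzymes was at a more even level than many of the enzymes. *Col1a1*, the alpha 1 chain of type I collagen, was at 2711, 1662 and 2234 FPKM in bone 1, 2 and 3 and 3332, 1499 and 1776 FPKM in osteoblasts 1, 2 and 3. *Col1a2*, its partner chain, was at 3981, 2106 and 2236 FPKM in bone 1, 2 and 3 and 2929.8, 2001 and 2002 FPKM in osteoblasts 1, 2 and 3. The highest value of *Col1a1* was 2.22 times the lowest and that of *Col1a2* 1.99 times, with the 2 kinds of library overlapping by either division. The 31 genes of the set together summed to 2784, 1496 and 740.3 FPKM in bone 1, 2 and 3 and 1743, 614 and 583 FPKM in osteoblasts 1, 2 and 3. As a ratio to the *Col1a1* FPKM of the same library, that sum was 1.03, 0.900 and 0.331 in bone 1, 2 and 3 and 0.523, 0.409 and 0.328 in osteoblasts 1, 2 and 3. Bone 1 and bone 2 were therefore near the level of *Col1a1*, and the other 4 libraries were lower, with osteoblasts 1 the highest of them and closer to osteoblasts 2 than to bone 2. As a share of all named FPKM the set took 0.468%, 0.420% and 0.0846% in bone 1, 2 and 3 and 0.447%, 0.0713% and 0.0708% in osteoblasts 1, 2 and 3.

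**Figure D1:**
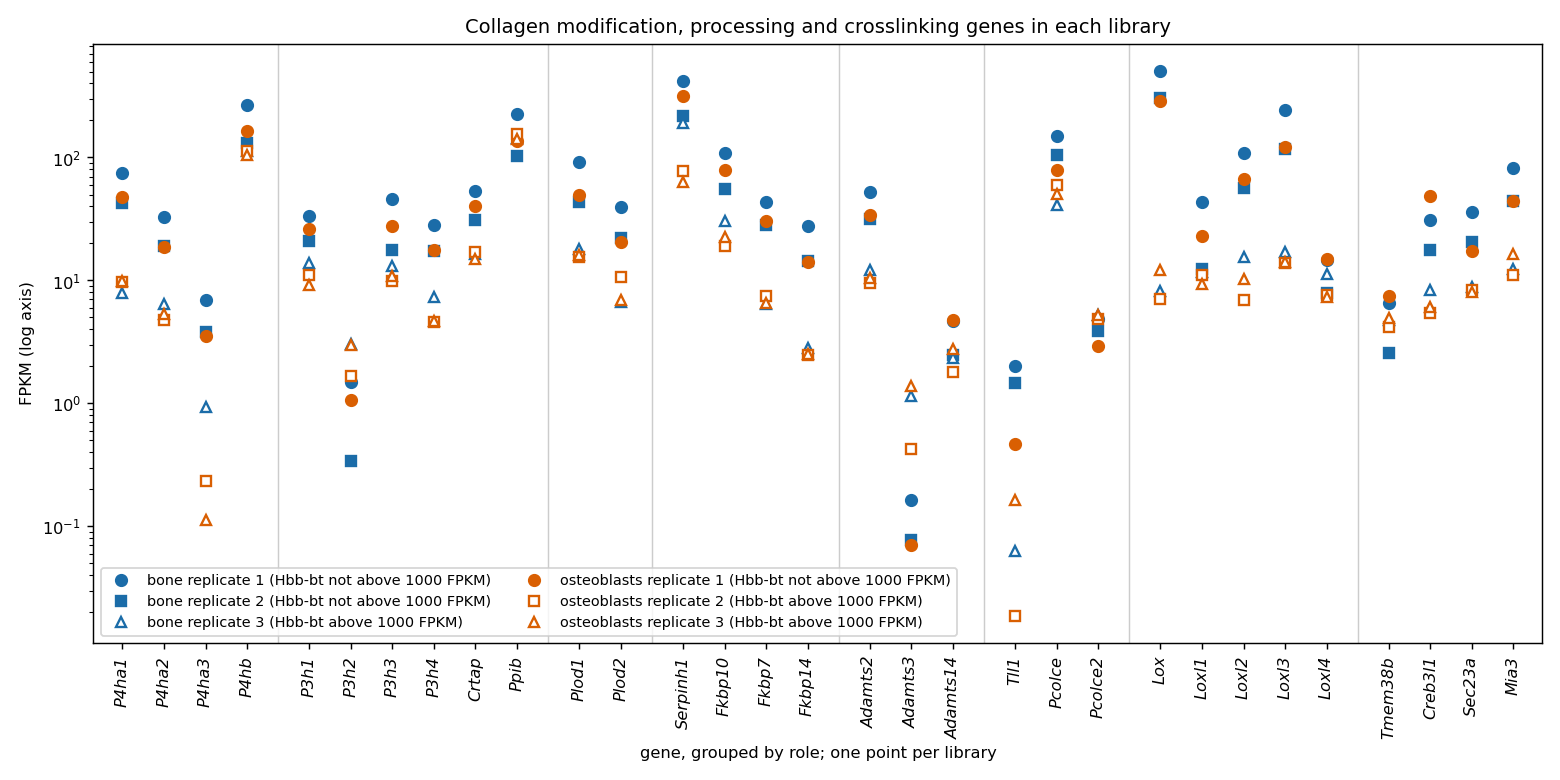
FPKM (log axis) of the 31 genes with a named feature in each library, grouped by role. Blue points are libraries labelled bone, orange points those labelled osteoblasts, shape gives the replicate, and open points mark the 3 libraries with *Hbb-bt* above 1000 FPKM. For *Lox* the 3 filled points lie between 287 and 503 FPKM and the 3 open points between 7.07 and 12.2 FPKM, while for *Ppib* filled and open points overlap.

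Prolyl 4-hydroxylase is a tetramer of alpha subunits, which hold the active site, and beta subunits. *P4ha1*, the main alpha subunit gene, was at 74.4, 42.3 and 7.84 FPKM in bone 1, 2 and 3 and 47.7, 9.76 and 9.85 FPKM in osteoblasts 1, 2 and 3. All 3 libraries low in *Hbb-bt* were at 42.3 FPKM or more and the other 3 at 9.85 FPKM or less, while bone 3 was the lowest of all. *P4ha2*, the second alpha subunit, was at 32.8, 19.1 and 6.42 FPKM in bone 1, 2 and 3 and 18.8, 4.74 and 5.37 FPKM in osteoblasts 1, 2 and 3, in the same division. *P4ha3*, a rarer alpha subunit, was at 6.87, 3.84 and 0.931 FPKM in bone 1, 2 and 3 and 3.51, 0.233 and 0.113 FPKM in osteoblasts 1, 2 and 3. Its value in osteoblasts 3 lay under the level of 3 read pairs on 1 kb, so the low end of its range is not measured well. *P4hb* (Chr. 11, minus strand, 120560298 to 120573253) encodes the beta subunit, which is also protein disulfide isomerase and serves many other proteins. It was at 267, 132 and 112 FPKM in bone 1, 2 and 3 and 163, 114 and 106 FPKM in osteoblasts 1, 2 and 3, a range of 2.53 times, against 9.49 times for *P4ha1*. The ratio of *P4hb* to *P4ha1* therefore lay between 3.12 and 3.59 in the libraries low in *Hbb-bt* and between 10.7 and 14.3 in the high ones. Among the alpha subunits, the share of *P4ha1* in the summed FPKM was 65.2%, 64.8% and 51.6% in bone 1, 2 and 3 and 68.1%, 66.2% and 64.3% in osteoblasts 1, 2 and 3. That order of *P4ha1* over *P4ha2* over *P4ha3* held in all 6 libraries. *P4ha3* made up 5.01 to 6.13% of the sum in 4 libraries, and 1.58% and 0.738% in osteoblasts 2 and 3.

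Prolyl 3-hydroxylation runs through a complex of *P3h1* (the enzyme), *Crtap* (its helper, with no enzyme activity of its own) and *Ppib* (cyclophilin B, a proline isomerase of the endoplasmic reticulum). *P3h1* was at 33.4, 20.9 and 13.8 FPKM in bone 1, 2 and 3 and 26.1, 11.1 and 9.13 FPKM in osteoblasts 1, 2 and 3. *Crtap* was at 53.4, 30.8 and 16.5 FPKM in bone 1, 2 and 3 and 40.1, 16.9 and 14.8 FPKM in osteoblasts 1, 2 and 3. Both were higher in each library low in *Hbb-bt* than in each high one, and the ratio of *P3h1* to *Crtap* stayed within 0.615 and 0.836. *Ppib* (Chr. 9, plus strand, 66060222 to 66066623) did not follow them, at 226, 104 and 144 FPKM in bone 1, 2 and 3 and 137, 156 and 142 FPKM in osteoblasts 1, 2 and 3. Its libraries overlapped by label and by *Hbb-bt*, and bone 2 was the lowest. The ratio of *Ppib* to *Crtap* was 3.36 to 4.23 in the libraries low in *Hbb-bt* and 8.73 to 9.59 in the high ones.

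*P3h3* and *P3h4* encode a second prolyl 3-hydroxylase family pair, which works with lysyl hydroxylase 1. *P3h3* was at 45.7, 17.7 and 13.2 FPKM in bone 1, 2 and 3 and 27.6, 9.88 and 10.9 FPKM in osteoblasts 1, 2 and 3. *P3h4*, which has no enzyme activity, was at 28.5, 17.5 and 7.36 FPKM in bone 1, 2 and 3 and 17.7, 4.60 and 4.67 FPKM in osteoblasts 1, 2 and 3. Both were higher in the 3 libraries low in *Hbb-bt*, although for *P3h3* bone 2 and bone 3 were only 17.7 and 13.2 FPKM. *P3h2*, the isoenzyme best known for basement membrane collagen, was at 1.51, 0.343 and 3.05 FPKM in bone 1, 2 and 3 and 1.06, 1.66 and 3.00 FPKM in osteoblasts 1, 2 and 3. It was one of 2 genes of the set that were lower in every library low in *Hbb-bt* than in any high one. Its share of the 4 prolyl 3-hydroxylase family genes was 1.38%, 0.607% and 8.17% in bone 1, 2 and 3 and 1.46%, 6.11% and 10.8% in osteoblasts 1, 2 and 3.

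The promoters of *P4hb*, *Ppib* and *Crtap* are shown, with that of *Serpinh1*, the most abundant chaperone gene of the set. They were chosen after their values were seen: the highest library was 2.53, 2.18, 3.60 and 6.68 times the lowest for these genes, in that order. Each sequence is the 250 bases before the RefSeq start on GRCm38.p6, read 5′ to 3′ on the strand of the gene, and capitals mark ACGTG and CCAAT on either strand. ACGTG occurs in hypoxia and unfolded protein response elements, and CCAAT is the box bound by NF-Y.
P4hb, chr11:120573254-120573503, minus strand: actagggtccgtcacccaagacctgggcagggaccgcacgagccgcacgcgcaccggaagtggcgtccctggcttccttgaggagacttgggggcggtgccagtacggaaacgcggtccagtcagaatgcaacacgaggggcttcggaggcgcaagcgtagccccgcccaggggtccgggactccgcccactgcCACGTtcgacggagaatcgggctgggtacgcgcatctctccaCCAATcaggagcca
Ppib, chr9:66059919-66060168, plus strand: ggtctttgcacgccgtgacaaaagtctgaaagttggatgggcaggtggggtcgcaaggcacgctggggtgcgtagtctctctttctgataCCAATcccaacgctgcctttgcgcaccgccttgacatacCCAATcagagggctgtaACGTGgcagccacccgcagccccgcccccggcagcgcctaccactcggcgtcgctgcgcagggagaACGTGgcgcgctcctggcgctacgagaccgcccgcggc
Crtap, chr9:114390713-114390962, minus strand: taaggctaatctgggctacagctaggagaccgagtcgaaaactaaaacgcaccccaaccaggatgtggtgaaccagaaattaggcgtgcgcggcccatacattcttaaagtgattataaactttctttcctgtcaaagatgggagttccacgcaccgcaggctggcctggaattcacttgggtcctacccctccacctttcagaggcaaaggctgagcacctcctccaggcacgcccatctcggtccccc
Serpinh1, chr7:99353240-99353489, minus strand: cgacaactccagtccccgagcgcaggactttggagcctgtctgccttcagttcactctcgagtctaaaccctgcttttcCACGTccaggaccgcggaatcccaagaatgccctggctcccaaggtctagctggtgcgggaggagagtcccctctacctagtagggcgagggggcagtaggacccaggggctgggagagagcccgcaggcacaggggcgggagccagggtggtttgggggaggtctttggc
*P4hb* and *Ppib* held both motifs, *Serpinh1* held ACGTG, and *Crtap* held neither in this window. Promoters were found for 21 of the 31 genes, 23 in all, since *P3h1* and *Fkbp14* have 2 each. On either strand, ACGTG was in 8 of the 23 (34.8%, against 16.6% of all 32851 promoters of this length and 17.8% of those of protein-coding genes). CCAAT was in 7 (30.4%, against 33.8% and 35.4%). GGGCGG, the GC box, was in 17 (73.9%, against 32.7% and 42.6%). TGACG, a part of cAMP response elements, was in 6 (26.1%, against 17.8% and 20.2%) and can overlap ACGTG. GAANNTTC, the core of heat shock elements, was in 0 (against 6.69% and 6.17%). These are matches of letters and no site was tested. Whether a motif goes with how far a gene varied was not tested either. Among genes with ACGTG, the highest library was 2.18 times the lowest for *Ppib* and 9.49 times for *P4ha1*.

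Lysyl hydroxylases make the hydroxylysines from which the strong crosslinks of bone are formed. *Plod1* (Chr. 4, minus strand, 147909753 to 147936767), which acts on the helix, was at 91.3, 43.2 and 18.0 FPKM in bone 1, 2 and 3 and 49.4, 15.6 and 16.0 FPKM in osteoblasts 1, 2 and 3. *Plod2*, which acts on the telopeptides, was at 39.9, 22.0 and 6.67 FPKM in bone 1, 2 and 3 and 20.5, 10.8 and 6.87 FPKM in osteoblasts 1, 2 and 3. Each was higher in every library low in *Hbb-bt* than in any high one. The ratio of *Plod2* to *Plod1* stayed between 0.371 and 0.692, the highest in osteoblasts 2, and did not part by label or by *Hbb-bt*. *Plod3*, which also adds sugar to hydroxylysine, and *Colgalt1*, the galactosyltransferase, have no feature of their name. *Colgalt1* lies within a feature named *Pgls*, so it is given no value.

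Among the chaperones, *Serpinh1* (Chr. 7, minus strand, 99345376 to 99353239), which encodes HSP47, was at 421, 217 and 191 FPKM in bone 1, 2 and 3 and 314, 77.5 and 63.0 FPKM in osteoblasts 1, 2 and 3. Bone 3 with 191 FPKM was close to bone 2 with 217 FPKM, and osteoblasts 2 and 3 were far below both. *Serpinh1* was 1.57 to 1.92 times *P4hb* in bone 1 to 3 and osteoblasts 1, and 0.681 and 0.597 times in osteoblasts 2 and 3. *Fkbp10*, which encodes FKBP65, a partner of HSP47 and of lysyl hydroxylase 2, was at 108, 55.4 and 30.6 FPKM in bone 1, 2 and 3 and 78.6, 19.2 and 22.8 FPKM in osteoblasts 1, 2 and 3. *Fkbp7*, a related isomerase of the endoplasmic reticulum, was at 43.7, 28.4 and 6.49 FPKM in bone 1, 2 and 3 and 30.6, 7.47 and 6.57 FPKM in osteoblasts 1, 2 and 3. *Fkbp14*, which encodes FKBP22, a protein that binds type III collagen, was at 27.8, 14.3 and 2.84 FPKM in bone 1, 2 and 3 and 14.2, 2.47 and 2.53 FPKM in osteoblasts 1, 2 and 3. The 4 chaperone genes were each higher in the libraries low in *Hbb-bt*. *Fkbp10* was the most abundant of the 3 FKBP genes in all 6 libraries, with 56.5 to 76.6% of their sum.

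The N-proteinases cut the amino-terminal propeptide. *Adamts2* (Chr. 11, plus strand, 50602084 to 50827963), the main one, was at 52.8, 31.3 and 12.2 FPKM in bone 1, 2 and 3 and 34.2, 9.58 and 10.5 FPKM in osteoblasts 1, 2 and 3. *Adamts14* was at 4.67, 2.47 and 2.34 FPKM in bone 1, 2 and 3 and 4.80, 1.81 and 2.79 FPKM in osteoblasts 1, 2 and 3, with overlap by both divisions. *Adamts3*, which can cut the type II procollagen of cartilage, was at 0.165, 0.0777 and 1.16 FPKM in bone 1, 2 and 3 and 0.0710, 0.422 and 1.37 FPKM in osteoblasts 1, 2 and 3, and its values in the 3 libraries low in *Hbb-bt* were under the level of 3 read pairs on 1 kb. It was the other gene that was lower in each of them. Of the sum of the 3 N-proteinases, *Adamts2* had 91.6%, 92.5% and 77.8% in bone 1, 2 and 3 and 87.5%, 81.1% and 71.7% in osteoblasts 1, 2 and 3.

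The C-proteinases cut the carboxy-terminal propeptide, and the enhancers speed that cut. *Tll1*, a C-proteinase of the tolloid family, was at 2.02, 1.47 and 0.0627 FPKM in bone 1, 2 and 3 and 0.463, 0.0187 and 0.165 FPKM in osteoblasts 1, 2 and 3, which is under the level of 3 read pairs on 1 kb in the libraries high in *Hbb-bt*. *Pcolce* (Chr. 5, minus strand, 137605103 to 137629002), the procollagen C-endopeptidase enhancer, was at 149.7, 104 and 41.0 FPKM in bone 1, 2 and 3 and 79.8, 59.6 and 50.6 FPKM in osteoblasts 1, 2 and 3. It was higher in the libraries low in *Hbb-bt*, but its ratio to *Col1a1* overlapped. *Pcolce2*, a second enhancer, was at 4.89, 3.87 and 5.27 FPKM in bone 1, 2 and 3 and 2.91, 4.84 and 5.25 FPKM in osteoblasts 1, 2 and 3 and varied by 1.81 times, the narrowest range in the set. *Pcolce* held 88.6 to 96.8% of the sum of the enhancers.

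Lysyl oxidases oxidize lysines and hydroxylysines so that crosslinks form outside the cell. *Lox* (Chr. 18, minus strand, 52516069 to 52529867), the founding member, was at 503, 304 and 8.13 FPKM in bone 1, 2 and 3 and 287, 7.07 and 12.2 FPKM in osteoblasts 1, 2 and 3. Bone 1, bone 2 and osteoblasts 1 had 287 FPKM or more and the other 3 libraries 12.2 FPKM or less, the widest gap in the set. *Loxl3*, a related oxidase, was at 243, 118 and 16.9 FPKM in bone 1, 2 and 3 and 122, 13.9 and 14.1 FPKM in osteoblasts 1, 2 and 3. *Loxl2*, which also acts on type IV collagen, was at 109, 56.0 and 15.5 FPKM in bone 1, 2 and 3 and 66.9, 6.87 and 10.3 FPKM in osteoblasts 1, 2 and 3, and both genes were highest in the same 3 libraries. *Loxl1*, which is known for elastic fibres, was at 43.3, 12.5 and 11.8 FPKM in bone 1, 2 and 3 and 23.0, 11.1 and 9.30 FPKM in osteoblasts 1, 2 and 3, and its bone 2 and bone 3 values were near each other. *Loxl4* was at 14.7, 7.87 and 11.2 FPKM in bone 1, 2 and 3 and 14.8, 7.65 and 7.38 FPKM in osteoblasts 1, 2 and 3, with overlap by both divisions. The makeup of the family therefore differed between libraries. The share of *Lox* in the summed FPKM of the 5 genes was 55.1%, 61.0% and 12.8% in bone 1, 2 and 3 and 55.8%, 15.2% and 23.0% in osteoblasts 1, 2 and 3. That of *Loxl1* was 2.50 to 4.75% in the libraries low in *Hbb-bt* and 17.5 to 23.9% in the high ones, and that of *Loxl4* 1.58 to 2.89% and 13.9 to 17.7%. *Loxl3* kept a share of 23.7 to 29.8% in all 6. *Lox* was 11.6 to 24.4 times *Loxl1* in the libraries low in *Hbb-bt* and 0.635 to 1.31 times in the high ones.

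**Figure D2:**
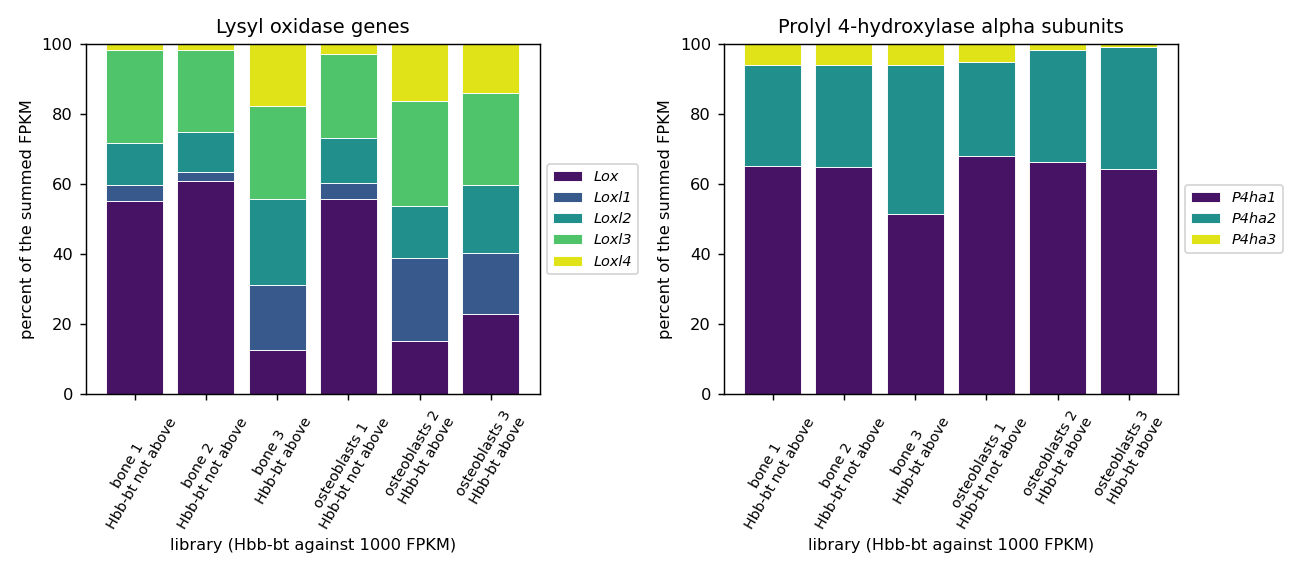
Percent of the summed FPKM taken by each lysyl oxidase gene (left) and each prolyl 4-hydroxylase alpha subunit gene (right) in each library, with the library's *Hbb-bt* against 1000 FPKM below its name. *Lox* takes 55.1 to 61.0% in bone 1, bone 2 and osteoblasts 1 and 12.8 to 23.0% in the others, while *P4ha1* takes 51.6 to 68.1% in all 6.

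The last 4 genes act in secretion and its control. *Mia3* (Chr. 1, minus strand, 183326725 to 183369553) encodes TANGO1, which loads procollagen into large vesicles, and was at 81.6, 44.6 and 12.3 FPKM in bone 1, 2 and 3 and 44.6, 11.1 and 16.6 FPKM in osteoblasts 1, 2 and 3. *Sec23a*, a subunit of the COPII coat, was at 36.4, 20.7 and 8.81 FPKM in bone 1, 2 and 3 and 17.3, 8.38 and 8.13 FPKM in osteoblasts 1, 2 and 3. *Creb3l1* encodes OASIS, a transcription factor of the endoplasmic reticulum that drives *Col1a1* in osteoblasts, and was at 30.8, 17.7 and 8.42 FPKM in bone 1, 2 and 3 and 48.4, 5.40 and 6.05 FPKM in osteoblasts 1, 2 and 3. These 3 genes were higher in every library low in *Hbb-bt*, and *Creb3l1* was one of the 7 genes that did not peak in bone 1. *Tmem38b*, the cation channel TRIC-B of the endoplasmic reticulum, was at 6.57, 2.55 and 4.76 FPKM in bone 1, 2 and 3 and 7.50, 4.22 and 4.94 FPKM in osteoblasts 1, 2 and 3, with overlap by both divisions and bone 2 the lowest.

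Counted over the set, 24 of the 31 genes had a higher FPKM in every library low in *Hbb-bt* than in any high one. Of the 29 with a mean FPKM of at least 1, these were 23, where 16.9% of all 12111 such genes without *Hbb-bt* lay that way. The opposite order was seen for 2 of 31 (*P3h2* and *Adamts3*), or 1 of the 29, against 38.4% of all. The scale moved these shares: with FPKM rescaled to the sum over named genes 28 of the 29 were higher in the low libraries and 0 lower, where 48.6% of all were higher and 21.3% lower, and with scaling to the 75th percentile 26 were higher and 1 lower, where 32.1% of all were higher and 37.1% lower. As deposited, the other 5, *Ppib*, *Adamts14*, *Pcolce2*, *Loxl4* and *Tmem38b*, overlapped. For 14 of the 31 genes (13 of the 29, against 5% of all) the lowest of the 3 low libraries was over 2 times the highest of the high ones. By their names, these 14 were the 3 prolyl 4-hydroxylase alpha subunits, *P3h4*, *Plod1*, *Fkbp7*, *Fkbp14*, *Adamts2*, *Tll1*, *Lox*, *Loxl2*, *Loxl3*, *Creb3l1* and *Mia3*. Bone 1 was the highest library for 24 of the 31 genes, but the share over all genes was not computed, so this count has no baseline. The shares of erythroid and neutrophil RNA differed between these libraries as given above, all FPKM of a library share that scale, and the part of this in the counts was not tested.

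A ratio to *Col1a1* of the same library does not depend on that scale. As a percent of *Col1a1*, *Lox* was at 18.6%, 18.3% and 0.364% in bone 1, 2 and 3 and 8.61%, 0.471% and 0.688% in osteoblasts 1, 2 and 3. *Loxl3* was at 8.95%, 7.08% and 0.756% in bone 1, 2 and 3 and 3.67%, 0.928% and 0.793% in osteoblasts 1, 2 and 3. *P4ha1* was at 2.74%, 2.55% and 0.351% in bone 1, 2 and 3 and 1.43%, 0.651% and 0.555% in osteoblasts 1, 2 and 3. For these genes the 3 libraries low in *Hbb-bt* were again the highest, with osteoblasts 1 between bone 1 and 2 and the rest. *Serpinh1* was at 15.5%, 13.1% and 8.53% in bone 1, 2 and 3 and 9.42%, 5.17% and 3.55% in osteoblasts 1, 2 and 3 and kept that order, although bone 3 and osteoblasts 1 were close. The beta subunit gene *P4hb* was at 9.86%, 7.96% and 5.03% in bone 1, 2 and 3 and 4.89%, 7.59% and 5.94% in osteoblasts 1, 2 and 3. *Ppib* was at 8.32%, 6.23% and 6.43% in bone 1, 2 and 3 and 4.10%, 10.4% and 8.02% in osteoblasts 1, 2 and 3. Both of them overlapped, and *Ppib* was highest in osteoblasts 2 and lowest in osteoblasts 1. In all, 19 of the 31 ratios were higher in each library low in *Hbb-bt* (18 of the 29, against 7.74% of all 12110 genes without *Hbb-bt* and *Col1a1*). Of the others, 3 of 31 were lower in each (*P3h2*, *Adamts3* and *Pcolce2*; 2 of the 29, against 50.8%), and 9 overlapped, among them *P4hb*, *Ppib*, *Plod2*, *Pcolce*, *Loxl1* and *Sec23a*.

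**Figure D3:**
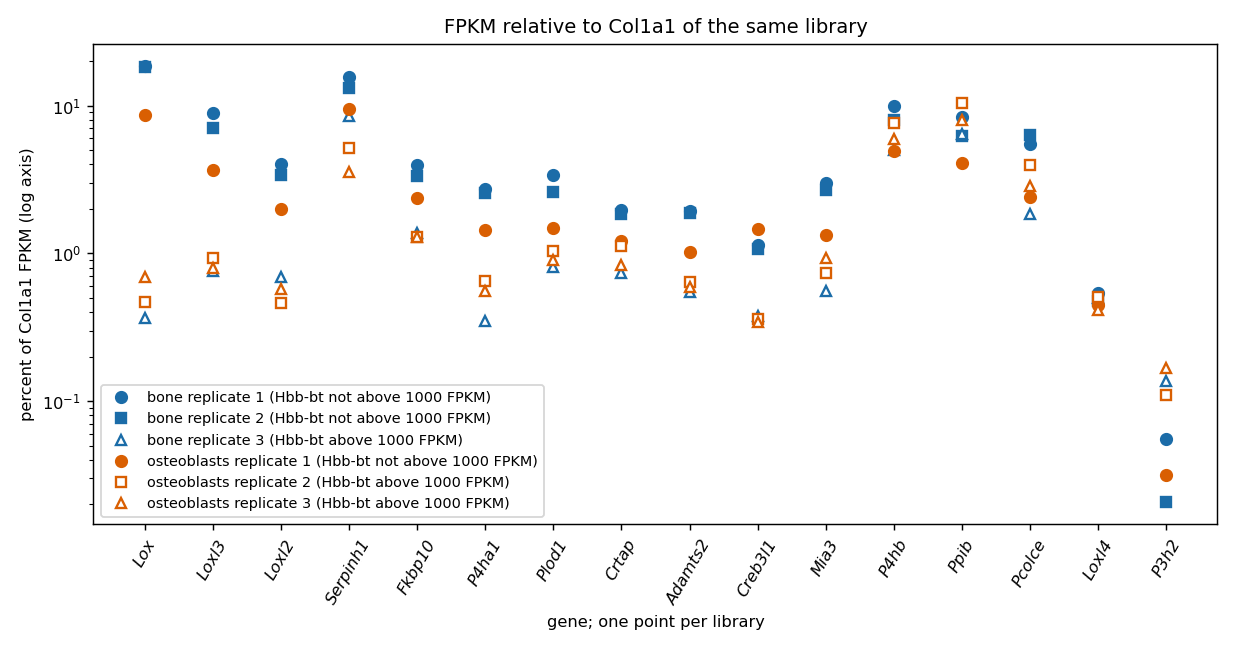
FPKM of 16 genes as a percent of the *Col1a1* FPKM of the same library (log axis), with 1 point per library, blue for bone, orange for osteoblasts and open where *Hbb-bt* was above 1000 FPKM. *Lox* runs from 0.364 to 18.6% with open and filled points apart, and *Loxl4* stays between 0.415 and 0.540%.

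**Figure D4:**
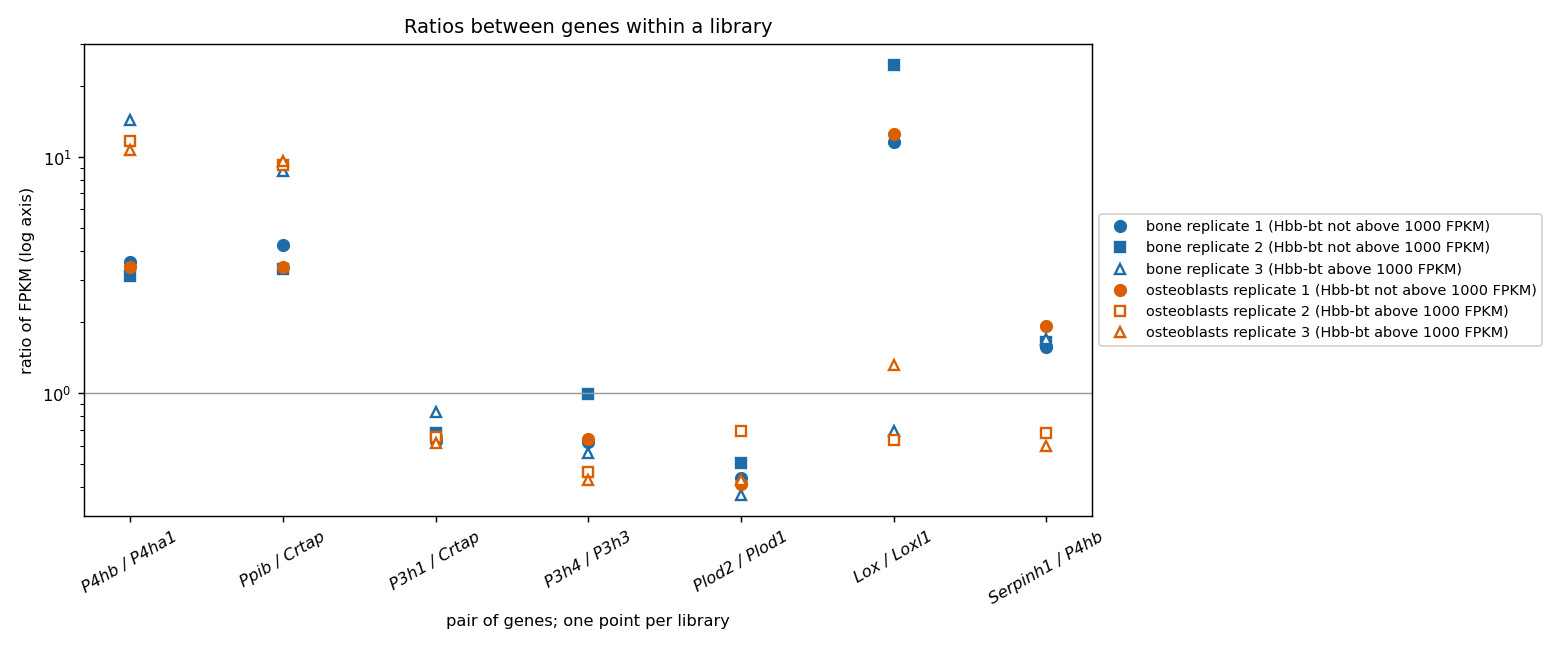
Ratio of the FPKM of gene pairs in each library (log axis), with colours, shapes and fill as for the plot of FPKM by library, and the line at equal levels. The ratio of *P3h1* to *Crtap* stays between 0.615 and 0.836, and those of *P4hb* to *P4ha1*, *Ppib* to *Crtap* and *Lox* to *Loxl1* lie apart between filled and open points.

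By their labels, the libraries of bone and of osteoblasts overlapped in all 31 genes, so that 0 of 31 were apart in FPKM, where 0.438% of all 12112 tested genes were lower in each osteoblasts library and 0.479% higher. In limma on log2(FPKM + 1), 0 of the 29 genes tested passed an adjusted p of 0.05, and 0 had an unadjusted p under 0.05. Of all 12112 genes 0 passed (0%), and 17 (0.14%) had an unadjusted p under 0.05. The most abundant gene of each role had these values. *Lox* was at 272 ± 249 FPKM in bone and 102 ± 160.2 FPKM in osteoblasts (SD, n = 3 each), a log2 difference of osteoblasts minus bone of -1.84 with a standard error (SE) of 1.69 (limma, adjusted p = 0.999). *Serpinh1* was at 276 ± 126 and 151 ± 141 FPKM, a log2 difference of -1.16 (SE 0.73). *P4hb* was at 171 ± 84.2 and 127 ± 31.1 FPKM (-0.34, SE 0.57) and *Ppib* at 158 ± 62.2 and 145 ± 10.0 FPKM (-0.05, SE 0.54). *Pcolce* was at 98.4 ± 54.6 and 63.3 ± 14.9 FPKM (-0.47, SE 0.60). *Plod1* was at 50.9 ± 37.3 and 27.0 ± 19.4 FPKM (-0.82, SE 0.71), *Mia3* at 46.2 ± 34.7 and 24.1 ± 18.0 FPKM (-0.79, SE 0.77), and *Adamts2* at 32.1 ± 20.3 and 18.1 ± 13.9 FPKM (-0.81, SE 0.68). The libraries of the labels overlapped in each of these 8 genes, and each had an adjusted p of 0.999 in limma. For *Col1a1* the log2 difference was -0.06 (SE 0.68) and for *Col1a2* -0.23 (SE 0.67). Of the 29 genes, 27 were below 0, where 37.4% of all tested genes were, and *P3h2* and *Tmem38b* were at 0.23 and 0.26. The median of the 29 was -0.76 against 0.12 over all genes tested. Leaving out 1 library changed a call: without osteoblasts 1, limma passed *Lox* alone of the set (-3.44, adjusted p = 0.0323) among 300 genes (0.314% of all lower and 2.16% higher in osteoblasts), and without bone 3 it passed 77 genes (0.0908% of all lower and 0.545% higher), 0 of them of the set. Without bone 3, 11 of the 29 had an unadjusted p under 0.05 (11.8% of all genes), and without osteoblasts 1 also 11 (12.6%). Without bone 3 the FPKM of 8 of the 29 were lower in each osteoblasts library, against 7.47% of all genes, and those of 16 without osteoblasts 1, against 5.57%.

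**Figure D5:**
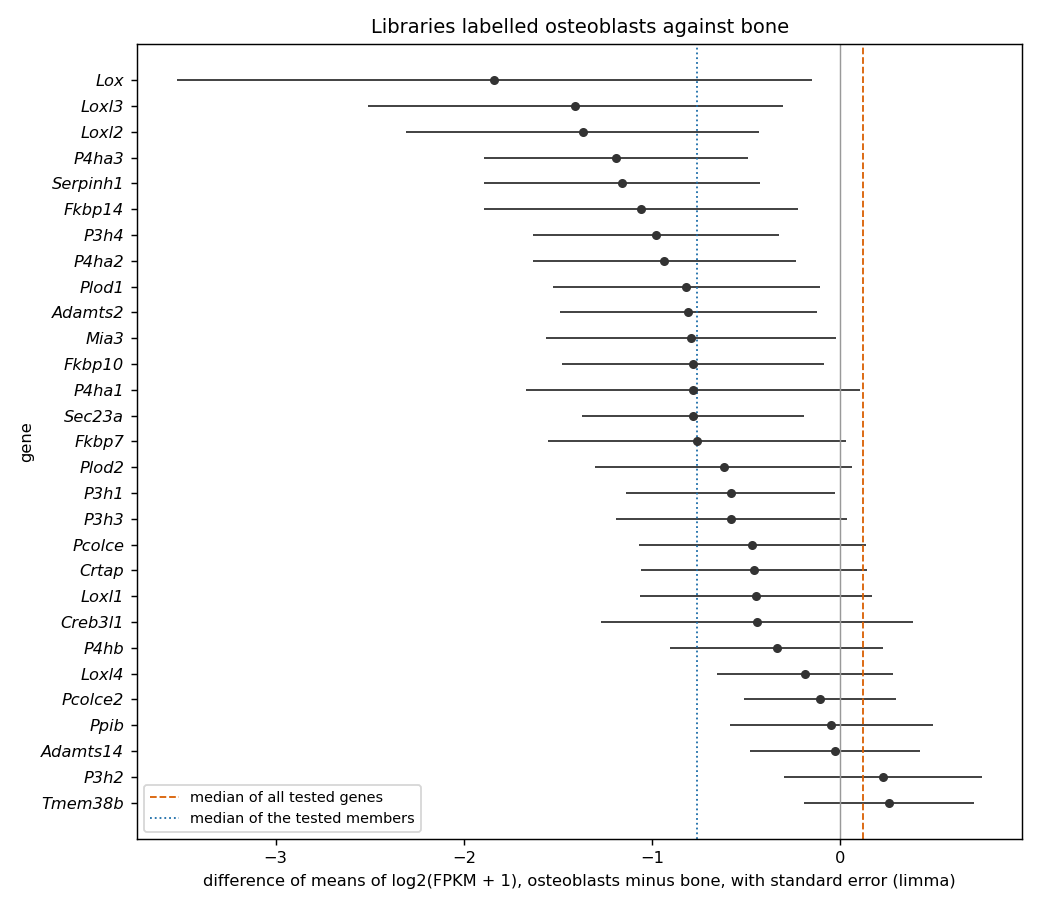
Difference of the means of log2(FPKM + 1), osteoblasts minus bone, for the 29 genes tested, with the standard error from limma (n = 3 libraries per label). The points run from -1.84 for *Lox* to 0.26 for *Tmem38b*, with the median of the set at -0.76 (dotted) and that of all tested genes at 0.12 (dashed).

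Nor did the ratios to *Col1a1* part by label (0 of 31, where 0.578% of all genes were lower and 0.289% higher in osteoblasts). This rested on single libraries: without bone 3, 22 of the 29 tested ratios were lower in each osteoblasts library (17.5% of all), and without osteoblasts 1, 6 were lower (1.41%) and 2 higher (55.2%). The log2 ratio of *Lox* differed by -1.82 (exact permutation test, two-sided, p = 0.4), that of *Serpinh1* by -1.11 (exact p = 0.2), *Plod1* by -0.78 (exact p = 0.4), *Adamts2* by -0.79 (exact p = 0.4) and *Mia3* by -0.76 (exact p = 0.4). That of *Pcolce* differed by -0.41 (exact p = 0.5), *P4hb* by -0.28 (exact p = 0.4) and *Ppib* by 0.01 (exact p = 1). With 3 libraries against 3 the smallest p is 0.1, so this test cannot pass 0.05. Over the 31 ratios tested the smallest p was 0.2, reached by 6.

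Other genes, most of them of the collagen secretory pathway, were taken from a list of 37 symbols, of which 29 have a named feature and 27 were tested. The list also held *P4htm* and *Ogfod1*, hydroxylases that do not act on procollagen, and *Ogfod1* was among the 27. In limma 0 of the 27 passed between the labels, 0 had an unadjusted p under 0.05, and 22 were below 0 (37.4% of all). Of the 27, 16 were higher in each library low in *Hbb-bt* (16.9% of all) and 3 were lower (38.4%), *Atf4*, *Klhl12* and *Colgalt2*. The 3 most abundant were *Sparc*, *Calr* and *Hspa5*. *Sparc*, which encodes the collagen-binding osteonectin, was at 1680.1, 989 and 1148 FPKM in bone 1, 2 and 3 and 1216, 991 and 1028 FPKM in osteoblasts 1, 2 and 3. *Calr*, which encodes the chaperone calreticulin, was at 348, 158 and 194 FPKM in bone 1, 2 and 3 and 172, 214 and 199.6 FPKM in osteoblasts 1, 2 and 3. Both overlapped by both divisions. *Hspa5*, which encodes the chaperone BiP, was at 198, 97.4 and 62.2 FPKM in bone 1, 2 and 3 and 103, 78.1 and 88.4 FPKM in osteoblasts 1, 2 and 3, with the libraries low in *Hbb-bt* the higher ones. *Colgalt2*, the second collagen galactosyltransferase, was listed at 0 in those 3 libraries and at 2.62, 2.44 and 2.29 FPKM in bone 3, osteoblasts 2 and osteoblasts 3.

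Several features cover more than 1 gene, and whether the counting used strand is not given in the sources used here. RefSeq places *Snx22* within the span of *Ppib*, *Nt5c3b* within that of *Fkbp10*, *Plekha8* within that of *Fkbp14*, *Fbxo24* within that of *Pcolce*, *Zfp354c* within that of *Adamts2* and *Htra2* within that of *Loxl3*, in whole or in part. Reads of these pairs may be shared, so the levels of those 6 genes of the set are less certain. The features of *Crtap*, *Plod2*, *Adamts3*, *Adamts14*, *Pcolce2*, *Loxl2*, *Tmem38b* and *Mia3* also overlap other RefSeq entries, so the same limit holds for them.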

How the data were processed

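Expression in 6 RNA-seq libraries was used, 3 with the label bone and 3 with the label osteoblasts. Per the paper's methods and the submitters' processing notes, the authors made libraries with TruSeq RNA Library Prep Kit v2 from total RNA of 3 mice, sequenced pairs of 75 bp reads, aligned them to GRCm38 with HISAT2 2.0.5 and SAMtools 1.7, and estimated expression with StringTie 1.3.3. The authors deposited coverage, FPKM and TPM for 93285 features per library, FPKM being scaled to all aligned reads. Read counts were not used here, so the depth was inferred from the ratio of deposited coverage to FPKM, and the limit it sets on low values is approximate.

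FPKM were summed by gene name. The 12112 genes whose FPKM averaged at least 1 were compared between labels with limma 3.58.1 in R 4.3.3 on log2(FPKM + 1) with a trend, Benjamini-Hochberg adjustment over all tested genes and a threshold of 0.05. A fold change on that scale understates the change of low genes. Log2 ratios to *Col1a1* were compared with two-sided exact permutation tests. Other steps used Python 3.11.15, pandas 2.3.3, numpy 2.4.6 and matplotlib 3.10.9. limma was tested on simulated data with independent noise of SD 0.3 in log2. It found the 200 genes given a log2 change of 2, and 10 others. In these libraries the median SD within a label was 0.59, so that check does not show how limma performs on them. The study's design text calls the libraries biological replicates, but nothing ties a replicate number to an animal or says that cultures were separate, so p-values measure only the spread between these libraries.

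All 34 genes of the set are named, and the most abundant gene of each role carries the full statistics. The genes, the pathway list and the marker lists (erythroid, neutrophil, skeletal muscle, osteoblast, osteocyte, cartilage, tendon and fibroblast, osteoclast, macrophage, endothelial, adipocyte, smooth muscle) were chosen with earlier results of these data known. *Sost*, *Dmp1*, the 3 markers listed at 0 and the 4 promoters shown were picked after their values were seen. So were the single markers named for the osteoblast list, the osteoclast list and the tendon and fibroblast list. Alternatives were other pseudocounts (0.1 and 0.01), other filters, TPM, other scalings, no trend, the replicate block and leaving out each library. The 2 added ones came after seeing the data and were coverage in place of FPKM and leaving out the 2 libraries with most FPKM on unnamed features. Promoters are of RefSeq on GRCm38.p6. The paper's genetic, network and knockout experiments were not analysed here.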

Additional observations from a re-analysis of the deposited data

Results flagged for a closer look

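Signal was found at the places of 2 of the 3 genes without a named feature, in features that carry no name and enter no comparison. An unnamed feature on Chr. 5 (136987019 to 136996648 on GRCm38, plus strand) has the span of *Plod3*, the lysyl hydroxylase that also adds sugars. It was at 77.2, 37.7 and 24.9 FPKM in bone 1, 2 and 3 and 52.5, 25.6 and 25.1 FPKM in osteoblasts 1, 2 and 3. An unnamed feature on Chr. 14 (70474557 to 70520260, minus strand) has the span of *Bmp1*, the main C-proteinase of procollagen. It was at 89.7, 43.7 and 34.2 FPKM in bone 1, 2 and 3 and 62.2, 24.3 and 27.2 FPKM in osteoblasts 1, 2 and 3. Their lowest values, 24.9 and 24.3 FPKM, lie above the 0.133 to 0.221 FPKM that 3 read pairs on 1 kb would give. For both, the libraries low in *Hbb-bt* were the 3 highest and the labels overlapped. That was seen after the values were known and was not tested.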

How the results depend on the processing

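Of 322 values under alternatives, those given first are counts that rose from 0 and values that changed in sign or in call. With the replicate block limma passed 49 genes between the labels in place of 0, 46 higher (0.38%) and 3 lower (0.0248%) in osteoblasts, and 0 of the set, though *Lox*, *Loxl2*, *Loxl3* and *P4ha3* then had an unadjusted p under 0.05 (4.14% of all genes). Deviations of same-numbered libraries correlated at 0.84, -0.75 and 0.83 over 12112 genes, and bone 2 correlated best with osteoblasts 1 (0.80), so the numbers are not shown to pair the libraries. Leaving out 1 library, the genes passed ranged from 0 to 300 and the genes of the set from 0 to 1, which was *Lox* without osteoblasts 1 (-3.44, adjusted p = 0.0323). Of the 29 tested genes of the set, those apart between labels ranged from 0 to 16 in FPKM, 8 without bone 3 (11.8% of all genes were apart in either direction) and 16 without osteoblasts 1 (24.2%), and from 0 to 22 in the ratio to *Col1a1*, 22 without bone 3 (19.5%) and 8 without osteoblasts 1 (56.6%). Without the 2 libraries with most FPKM on unnamed features, which leaves 2 against 2, they were 16 of 29 (31.3%) and 8 of 29 (58.1%), and with *Col1a1* and *Col1a2* summed the ratio gave 1 of 29 (1.39%). With 1 library left out, the log2 difference of *P4hb* ranged from -0.58 to 0.037 and that of *Ppib* from -0.31 to 0.25. The log2 ratio of *Ppib* to *Col1a1* then ranged from -0.27 to 0.40. The median of the set kept its sign, ranging from -1.34 to -0.21. The cause of these changes was not tested. Those made by leaving out libraries rest on 2 libraries of a label, where a count of genes apart can only stay or rise. Without bone 1, bone 2, osteoblasts 2 or osteoblasts 3, 0 of the 29 were apart in FPKM and limma passed 0 genes. Of all genes, 8.12%, 6.64%, 1.57% and 1.82% were apart in FPKM in those settings, in that order. The block and the summed ratio used all 6.

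Rescaling to the sum over named genes moved the median of all genes from 0.12 to -0.03 and that of the set from -0.76 to -0.94. The 24 of 29 tested genes that did not overlap by *Hbb-bt* (55.3% of all in either direction) were 22 of 25 with a mean FPKM of at least 5 (56.2%) and 23 to 28 of 29 under the other settings (41.5% to 84.4%). The 20 of 29 ratios (58.6%) were 17 of 25 with that filter (59.9%) and 20 to 27 of 29 otherwise (59.9% to 76.6%). Depth leaves *Adamts3*, *Tll1* and the low values of *P4ha3* poorly measured.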
